A study of Mus musculus with 24 samples.

Results

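The integrated stress response is described here through 10 genes around the transcription factor ATF4: Atf4, Atf5, Cebpb, Cebpg, Atf3, Ddit3, Nupr1, Ppp1r15a, Trib3 and Chac1. They are 10 of the 23235 gene records in the deposited table. The genes were chosen by name as a known set, with their values in these same columns already in view, so their levels and ratios are given as a description and without a test. T11 cells come from a claudin-low mammary tumour of the mouse, and those used here expressed luciferase and had been kept in low-serum medium. Cells received FPP-1746-Omomyc, either of its parts (Omomyc or FPP-1746) or PBS, for 3 h or 6 h, where each peptide was given at 5 µM, and the 8 groups hold 3 biological replicates apiece, or 24 samples. Omomyc is a dominant-negative form of the MYC dimerisation domain, and FPP-1746 is a peptide that carries cargo into cells. FPP-1746-Omomyc, their fusion, is called the fusion below. For the fusion at 6 h the treatment tags of the samples read 3 h, against their titles and the column name, which were followed.

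The integrated stress response is a shared answer of cells to amino acid shortage, misfolded protein in the endoplasmic reticulum, viral RNA, heme shortage and mitochondrial damage. Any of 4 kinases phosphorylates the translation initiation factor eIF2, which lowers protein synthesis in general while the ATF4 mRNA is translated more. ATF4 is a basic leucine zipper (bZIP) protein that dimerises with C/EBP proteins and switches on genes for amino acid supply, further stress factors and feedback inhibitors, among them the other members described here. Much of ATF4 control is thus translational, and the mRNA levels below do not measure ATF4 protein.

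The values are FPKM, fragment numbers divided by transcript length and library size, and each is the authors' average of 1 group. No spread between replicates could be seen, no value has an error, and every difference below lacks a replicate check. A log2 ratio is taken of FPKM + 1, and a gene was called higher or lower at a ratio of at least 2-fold. Of all records, 10262 averaged 1 FPKM or more across the columns and were compared, which is what tested means below. All 10 members passed, and each was also above 1 FPKM in both PBS columns, so none entered only through the fusion. The column sums ran from 445657 to 594951 FPKM, highest in the fusion at 3 h and lowest in the fusion at 6 h. The step between low values gave a rough depth of 68.4 to 106 fragments per FPKM for a transcript of 2000 bases. By that estimate the lowest member value, Atf3 in the 3 h Omomyc column, rested on about 100 fragments. Mesenchymal markers fitted the label: Vim lay between 3302 and 5128 FPKM, all 8 markers were tested, and Epcam, Cldn3 and Krt18 were at 0 in every column. Of 6 macrophage markers in the table, Cd14 and Cd68 alone were tested. The summed macrophage markers ran from 11.2 to 25.8 FPKM in the 6 other columns and from 80.9 to 121 FPKM in the fusion, nearly all of it Cd14, while Emr1 was at 0 throughout and Csf1r, Ptprc and Itgam did not exceed 0.0523 FPKM. As the samples are bulk RNA, fewer cells of a type and less RNA per cell cannot be told apart.

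Promoter sequence is shown first because 4 of the members carry the same short element near their start. RefSeq promoter windows of build GRCm38.p6, 250 bases before to 50 after each start, were given for all 10 members in 11 windows, with 2 for Atf5. They were searched on both strands for TGATGNAA, the C/EBP-ATF response element to which dimers of ATF4 and C/EBP proteins bind. The element was found in Atf3, Chac1, Nupr1 and Trib3, and in 3.97% of all 32851 windows. All 4 matches read on the opposite strand of the gene, and Atf3, Chac1 and Nupr1 have the same 8 letters, TTGCATCA. The match began 110 bases before the start in Atf3 and also in Nupr1, and 193 bases before it in Chac1. In Trib3 it began at base 15 after the start, and the search of the 250 bases before the start alone found 3 members and 3.45% of windows. Capitals mark the element in the stretches below, and in Ppp1r15a they mark the CRE, TGACGTCA, the palindromic site of CREB and ATF dimers. All are written in the direction of the gene.
Atf3, chr1:191183386-191183493, minus strand: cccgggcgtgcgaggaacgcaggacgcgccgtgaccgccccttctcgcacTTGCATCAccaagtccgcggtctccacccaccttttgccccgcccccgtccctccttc
Chac1, chr2:119350999-119351106, plus strand: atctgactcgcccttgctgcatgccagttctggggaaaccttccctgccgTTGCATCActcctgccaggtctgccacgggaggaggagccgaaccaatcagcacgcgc
Nupr1, chr7:126625523-126625630, minus strand: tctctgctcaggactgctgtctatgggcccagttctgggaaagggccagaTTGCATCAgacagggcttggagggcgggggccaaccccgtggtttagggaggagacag
Trib3, chr2:152344028-152344057, minus strand: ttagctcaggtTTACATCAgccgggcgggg
Ppp1r15a, chr7:45526269-45526370, minus strand: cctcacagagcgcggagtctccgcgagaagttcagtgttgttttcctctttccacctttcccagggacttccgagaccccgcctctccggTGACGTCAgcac

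A full CRE was found in Ppp1r15a alone among the members, 12 bases before the start, and in 1.79% of all windows. Its core TGACG, which any full CRE contains on both strands, was found in Atf3, Atf4, Cebpb, Chac1, Ppp1r15a and Trib3 and in 20.8% of windows. CACGTG, the E-box that MYC and MAX bind, was found in Nupr1 alone and in 7.15% of windows. The AP-1 site TGANTCA was found in Ddit3 alone, 242 bases before the start, and in 7.81% of windows. CCAAT was found in 6 members, Atf3, Atf4, Atf5, Cebpg, Chac1 and Ddit3, and in 37.4% of windows. A match is a description of letters in this window. A gene with no match may have one outside it.

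In the deposited FPKM the fusion columns stood above every other column for all 10 genes, and each part alone gave values near those of PBS. Under quantile normalisation the fusion value of Atf5 at 3 h was below that of PBS. Among all tested genes, 21.6% also had both fusion columns above the 6 others. Against PBS of the same time, 8 of 10 members were called higher in the fusion at 3 h, where 6.13% of tested genes were, and 9 of 10 at 6 h, where 7.13% were. No member was called lower, where 4.42% of tested genes were at 3 h and 3.34% at 6 h. The members' median log2 ratio was 2.11 at 3 h and 2.57 at 6 h, beside 0.0034 and -0.026 over all tested genes. At 3 h Atf5 and Cebpg were the members short of 2-fold, and at 6 h it was Atf5, at a log2 ratio of 0.99. These percentages include records of small RNAs. Without them 5.91% and 6.95% of 10122 genes were called higher.

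**Figure D1:**
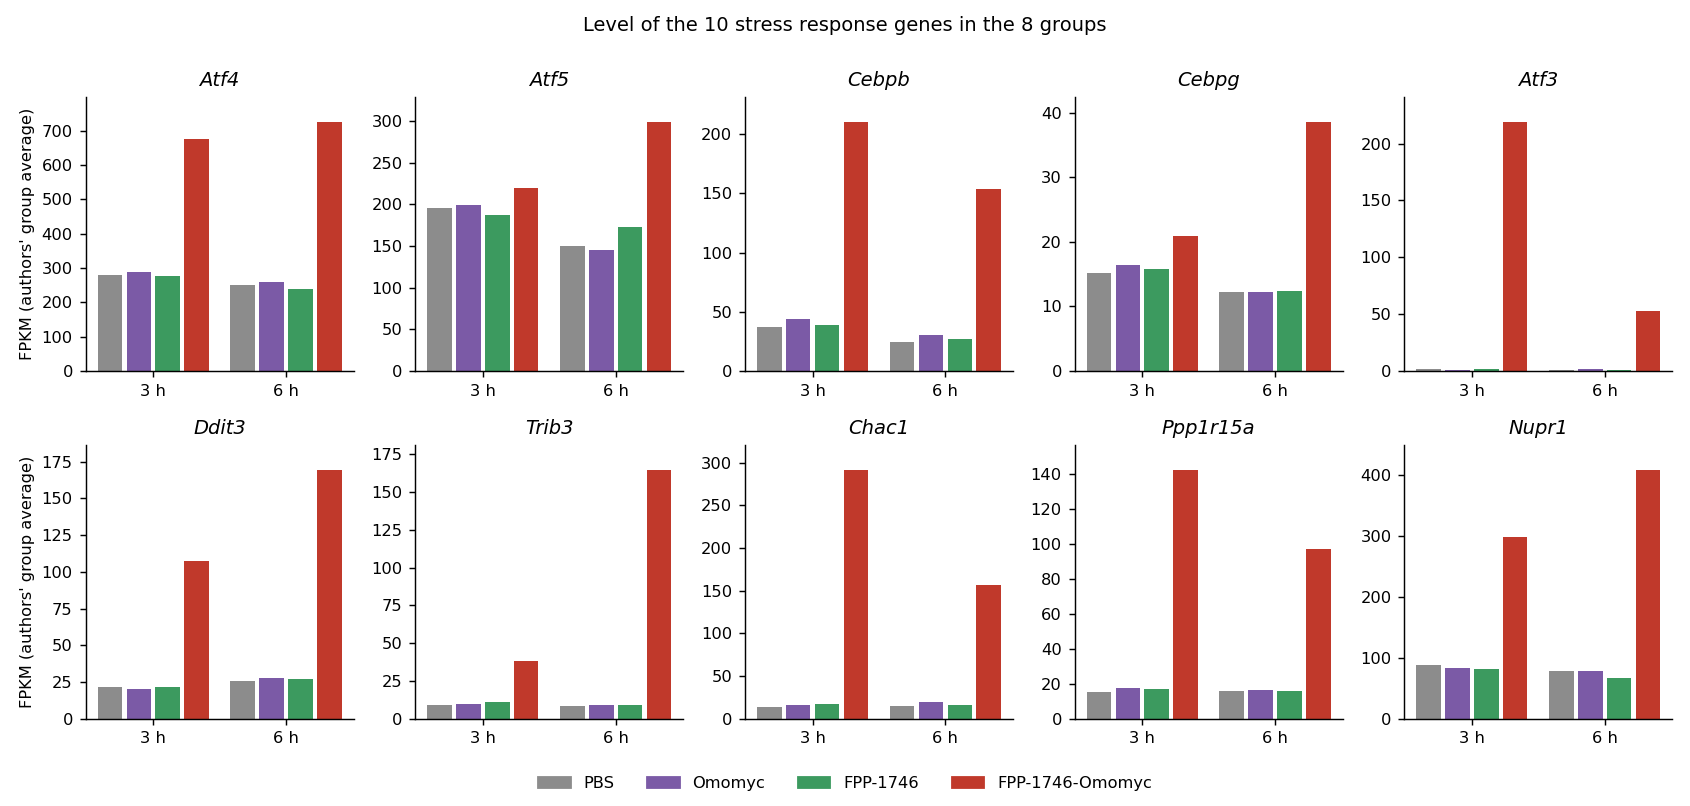
Deposited FPKM of each member (panels, vertical axes from 0), where a bar is 1 group average without an error bar, since the columns are averages. The fusion (red) is above PBS (grey), Omomyc (purple) and FPP-1746 (green) in every panel at both times, with the smallest ratio over PBS in Atf5 at 3 h, at 220 FPKM against 195 FPKM in PBS and 199 FPKM with Omomyc, a ratio that turns under quantile normalisation.

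Atf4, which encodes the factor at the centre of the response, was the most abundant member in every column. It lies on chromosome 15 from 80085614 to 80087971 in mm9, the build of the table. At 3 h its mRNA stood at 280 FPKM after PBS, 288 after Omomyc, 278 after FPP-1746 and 676 after the fusion. At 6 h the values were 252, 259, 240 and 725 FPKM in the same order. The 6 columns without the fusion spanned a factor of 1.20, and both fusion columns lay at least 2.35 times above the highest of them. The log2 ratio over PBS was 1.27 at 3 h and 1.52 at 6 h. Quantile normalisation of the columns lowered the 3 h ratio to 0.87, under the 2-fold rule. Between the times the deposited fusion columns differed by a factor of 1.07, so Atf4 was at nearly the same FPKM at both. That evenness may depend on scaling, as the 6 h ratio over PBS was not under 1.445 in any alternative, quantile normalisation included.

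Atf5, a close relative of ATF4 whose translation is also favoured when eIF2 is phosphorylated, had the smallest ratios. Its record spans chromosome 7 from 52067626 to 52104449. The FPKM at 3 h were 195 after PBS, 199 after Omomyc, 187 after FPP-1746 and 220 after the fusion. By 6 h they were 150, 145, 173 and 299 FPKM. At 3 h the fusion was thus within a factor of 1.13 of PBS. The 6 other columns spanned a factor of 1.37, but over both times, and all were lower at 6 h. At 3 h alone the other columns lay between 187 and 199 FPKM, below the fusion. The log2 ratio was 0.17 at 3 h, turning to -0.091 under quantile normalisation, and 0.99 at 6 h. The table gives Atf5 the same span as Nup62, Tbc1d17, Il4i1 and the Nup62-il4i1 readthrough, so reads of these genes may be mixed. The nuclear pore gene Nup62 was also higher in the fusion at 6 h, at 130 FPKM against 78.1 in PBS and a log2 ratio of 0.73, and Tbc1d17 was at 0.71.

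The C/EBP partners of ATF4 differed from each other in level and in timing. Cebpb, which encodes a bZIP factor of acute-phase and inflammatory genes, lies on chromosome 2 from 167514415 to 167515918. It was at 37.1 FPKM after PBS, 44.2 after Omomyc, 39.4 after FPP-1746 and 210 after the fusion at 3 h. At 6 h it was at 24.5, 30.2, 27.5 and 154 FPKM. Its log2 ratio over PBS was 2.47 and 2.60, nearly level, although its FPKM with the fusion was lower at 6 h, since PBS was lower too. Among the members Cebpb had the widest span over the 6 columns without the fusion, a factor of 1.80. Cebpg, a shorter C/EBP that lacks a strong activation domain and pairs with ATF4, lies on chromosome 7 from 35831441 to 35841585. With the fusion it went from 20.9 FPKM at 3 h to 38.5 FPKM at 6 h, against 15.1 and 12.3 FPKM in PBS. Omomyc and FPP-1746 gave 16.4 and 15.7 FPKM at 3 h and 12.2 and 12.4 FPKM at 6 h. The log2 ratio of Cebpg was 0.44 at 3 h and 1.57 at 6 h.

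Atf3, a stress-induced bZIP repressor and activator, had the lowest level of all members without the fusion and the largest ratio with it. It lies on chromosome 1 from 192994176 to 193007212. In PBS, Omomyc and FPP-1746 it was at 1.59, 1.21 and 1.46 FPKM at 3 h and at 1.31, 1.63 and 1.28 FPKM at 6 h. The fusion gave 219 FPKM at 3 h and 52.5 FPKM at 6 h. The 3 h value was 137 times PBS and ranked 5 from the top among the 10262 tested genes, and the 6 h value was 40.1 times PBS and ranked 12. On the log2 scale of FPKM + 1 these were 6.41 and 4.53, and the pseudocount moved them between 5.09 and 7.01 at 3 h and between 3.19 and 5.22 at 6 h. Atf3 was thus the 5th most abundant member in the fusion at 3 h and the 9th at 6 h.

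Ddit3, which encodes CHOP, a bZIP factor tied to cell death after prolonged stress, was higher with the fusion than in all other columns, and more so at 6 h. Its record spans chromosome 10 from 126727849 to 126748842. At 3 h it was at 21.5 FPKM after PBS, 20.2 after Omomyc, 21.6 after FPP-1746 and 107 after the fusion, a log2 ratio of 2.27 for the last. The 6 h values were 25.4, 27.6, 27.1 and 170 FPKM, with a log2 ratio of 2.70. The methionyl-tRNA synthetase gene Mars has the same span in the table, and its log2 ratio was 0.19 at 3 h and 0.038 at 6 h. Nupr1, a small stress-induced chromatin protein, lies on chromosome 7 from 133766760 to 133768984. It was at 87.8 FPKM after PBS, 82.3 after Omomyc, 81.0 after FPP-1746 and 298 after the fusion at 3 h. At 6 h it was at 77.9, 78.6, 66.2 and 409 FPKM, so that it was the most abundant member after Atf4 in both fusion columns. Its log2 ratio was 1.75 and 2.38.

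The feedback and effector genes split by time. Ppp1r15a encodes GADD34, which brings a phosphatase to eIF2 and restores translation, and lies on chromosome 7 from 52778288 to 52781638. It was at 15.5 FPKM after PBS, 17.6 after Omomyc, 16.7 after FPP-1746 and 143 after the fusion at 3 h, and at 15.9, 16.5, 15.8 and 97.3 FPKM at 6 h. Its log2 ratio was 3.12 and then 2.54, and its 6 other columns were the tightest of the members, within a factor of 1.13. Chac1 encodes an enzyme that breaks down glutathione and lies on chromosome 2 from 119176978 to 119180062. Its FPKM at 3 h were 13.6 after PBS, 15.8 after Omomyc, 17.1 after FPP-1746 and 292 after the fusion. At 6 h they were 14.6, 19.6, 15.7 and 157 FPKM. The ratio to PBS was 21.4 and then 10.8 in linear FPKM, or 4.32 and 3.34 on the log2 scale. Trib3 encodes a pseudokinase that binds ATF4 and CHOP and dampens them, and lies on chromosome 2 from 152163161 to 152169796. It was at 8.98 FPKM after PBS, 9.81 after Omomyc, 10.9 after FPP-1746 and 37.8 after the fusion at 3 h. At 6 h it was at 8.60, 8.91, 9.05 and 165 FPKM. Its ratio to PBS was 4.21 and then 19.2 in linear FPKM, or 1.96 and 4.11 on the log2 scale.

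**Figure D2:**
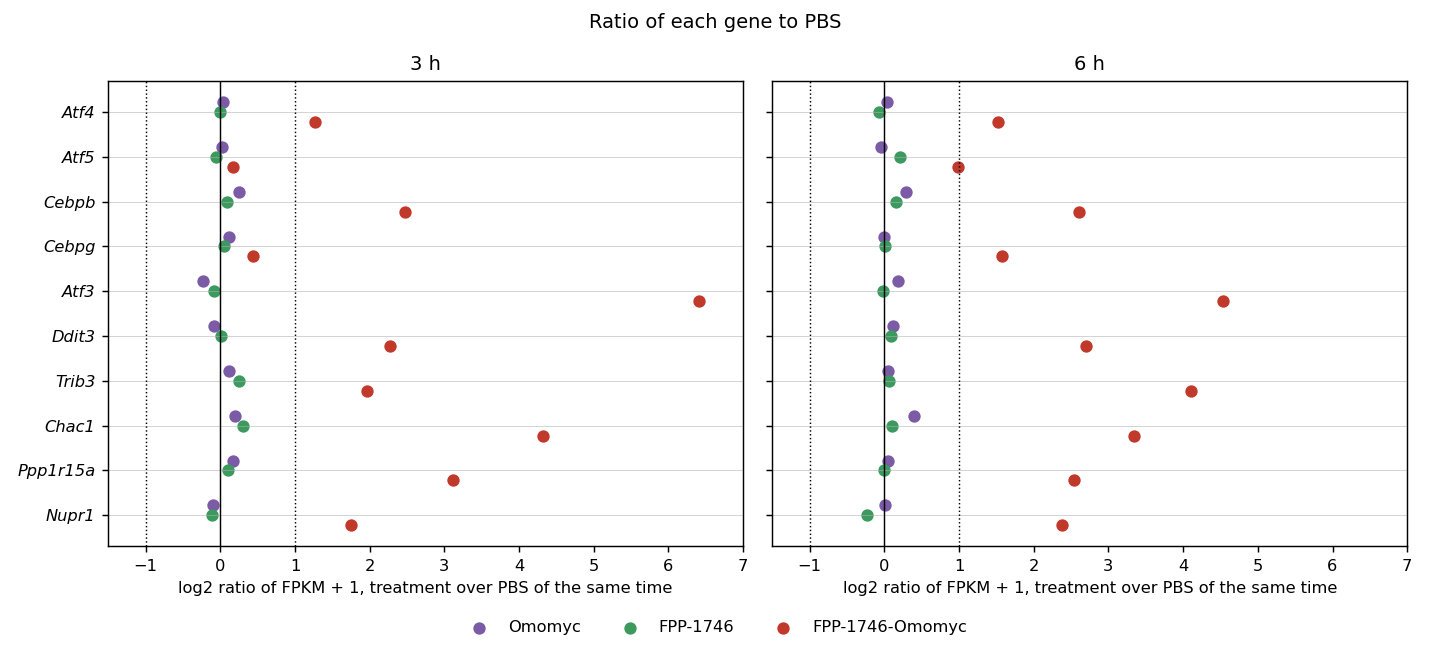
Log2 ratio of FPKM + 1 over PBS of the same time for each gene, at 3 h (left) and 6 h (right), with Omomyc in purple, FPP-1746 in green and the fusion in red; dotted lines mark 2-fold. Every purple and green point lies between -0.23 and 0.40, and the red points reach 6.41 for Atf3 at 3 h.

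With either part alone no member passed the 2-fold rule. For Omomyc against PBS the members' log2 ratios lay between -0.23 and 0.25 at 3 h and between -0.047 and 0.40 at 6 h, and 0 of 10 were called higher, where 0.283% and 0.312% of tested genes were. For FPP-1746 the ranges were -0.11 to 0.31 and -0.23 to 0.20, again with 0 of 10 called higher, beside 0.322% and 0.224%. Most calls behind these shares of all tested genes were records of small RNAs. Without them, of 10122 genes, 0 were called higher with Omomyc at 3 h and 4 at 6 h, and 2 with FPP-1746 at each time. The largest of the members' ratios with a part was Chac1 with Omomyc at 6 h, 0.40, at 19.6 FPKM against 14.6 in PBS. Chac1 with FPP-1746 at 3 h, 0.31, was the largest for the carrier. With no replicate values it cannot be said whether such steps exceed the variation between cultures.

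Set against its parts instead of PBS, the fusion gave nearly the same picture. These comparisons reuse the fusion columns and are therefore not separate evidence. At 3 h 8 of 10 members were called higher against Omomyc and 8 of 10 against FPP-1746, where 5.56% and 5.86% of tested genes were. At 6 h the counts were 10 of 10 against Omomyc and 9 of 10 against FPP-1746, beside 6.59% and 6.94%. Atf5 made that difference, with a log2 ratio of 1.03 against Omomyc and 0.78 against FPP-1746, the carrier column being its highest without the fusion at 6 h. The median log2 ratio of the members was 2.03 and 2.06 at 3 h and 2.43 and 2.58 at 6 h, against Omomyc and FPP-1746 in that order.

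The members did not keep 1 time course. Within the fusion, Atf3 was called lower at 6 h than at 3 h, where 4.92% of tested genes were, and Trib3 was called higher, where 7.27% were. On the log2 scale these changes were -2.04 and 2.09. Chac1 (-0.89), Ppp1r15a (-0.55) and Cebpb (-0.45) were also below their 3 h value, and Cebpg (0.85), Ddit3 (0.65), Nupr1 (0.46), Atf5 (0.44) and Atf4 (0.10) above it, all short of 2-fold. These changes are from the deposited columns, where the fusion summed to 594951 FPKM at 3 h and 445657 FPKM at 6 h. Over the alternatives the members' median change ran from -0.17 to 0.78, so the size and direction of the smaller changes may depend on scaling. In PBS over the same hours 0 of 10 members were called higher, where 0.38% of tested genes were, and the log2 changes ran from -0.58 for Cebpb to 0.23 for Ddit3. In Omomyc and FPP-1746 0 of 10 were called higher, beside 0.585% and 0.458%. Without small RNA records these shares were 0.109% for PBS, 0.336% for Omomyc and 0.207% for FPP-1746. Taking each time over its own PBS, the ratio was larger at 6 h for 7 members and larger at 3 h for Atf3, Chac1 and Ppp1r15a. Cebpb changed sides against the mean of both PBS columns, at 2.73 for 3 h and 2.29 for 6 h. The difference between the log2 ratios over each time's own PBS was widest for Trib3 (2.15) and Atf3 (-1.87), followed by Cebpg (1.13), Chac1 (-0.98) and Atf5 (0.82). The 4 genes with the response element lay on both sides of this divide, Atf3 and Chac1 on one and Trib3 and Nupr1 on the other.

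**Figure D3:**
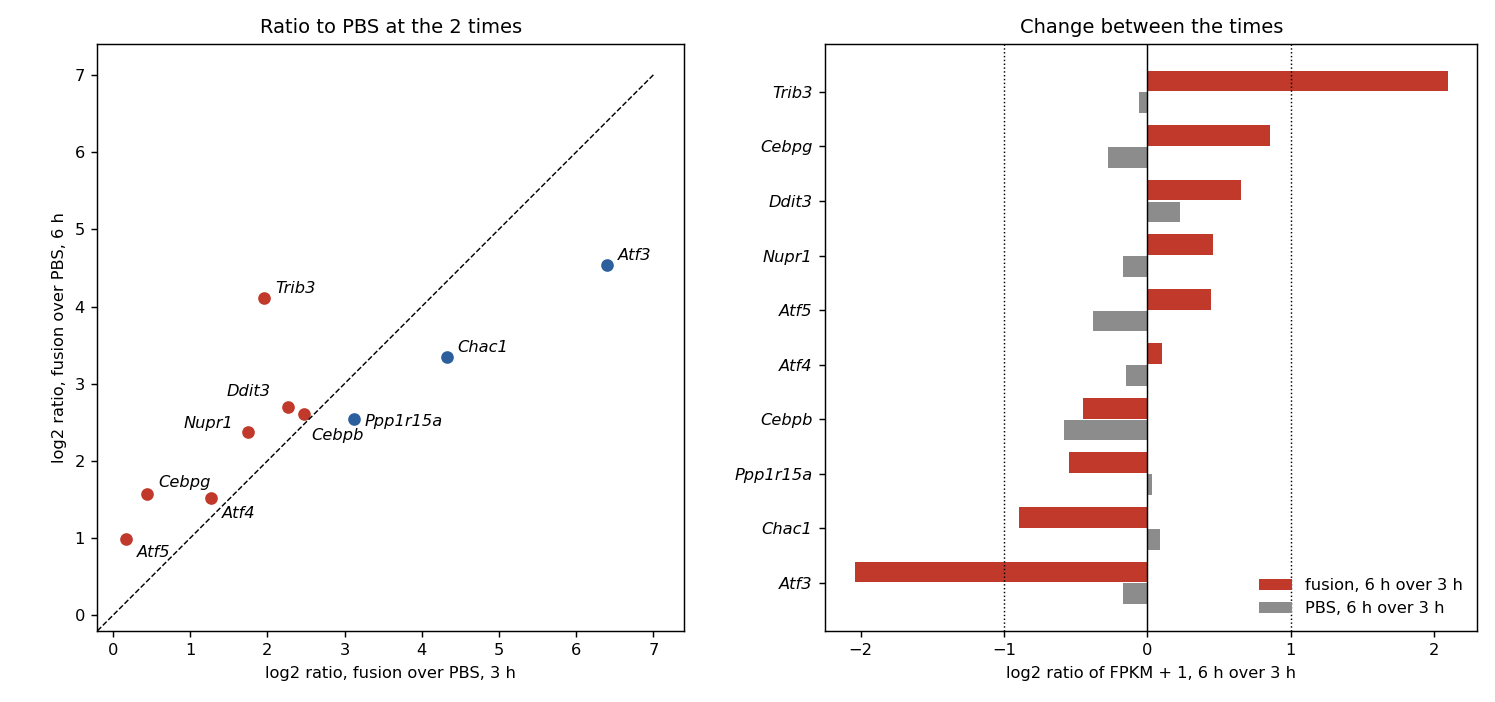
Left, log2 ratio of the fusion over PBS at 3 h (horizontal) and at 6 h (vertical), where the dashed line marks equal ratios and blue genes have the larger ratio at 3 h. Right, log2 ratio of FPKM + 1 at 6 h over 3 h within the fusion (red) and within PBS (grey), dotted lines at 2-fold; Trib3 (2.09) and Atf3 (-2.04) alone pass them.

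The order of the members changed with the fusion. In PBS at 3 h the order by FPKM was Atf4, Atf5, Nupr1, Cebpb, Ddit3, Ppp1r15a, Cebpg, Chac1, Trib3 and Atf3, from 280 to 1.59 FPKM. Ppp1r15a, Cebpg and Chac1 lay within 13.6 to 15.5 FPKM there, and their order cannot be read as a difference. In the fusion at 3 h Atf5, Atf3 and Cebpb stood close together at 220, 219 and 210 FPKM, and Nupr1 and Chac1 at 298 and 292 FPKM. At 6 h Ddit3, Trib3, Chac1 and Cebpb were at 170, 165, 157 and 154 FPKM. The 10 members summed to 676 FPKM in PBS and 2223 FPKM in the fusion at 3 h, and to 582 and 2266 FPKM at 6 h.

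Over the 8 columns the members' log2 values were correlated in all 45 pairs, with Pearson's r from 0.69 (Atf3 and Atf5) to 0.997 (Chac1 and Ppp1r15a) and a median of 0.94. These 8 points are averages in which the fusion columns differ from the rest, and no test was made. Both fusion columns were above the others for every member, as for 21.6% of tested genes, and that split alone favours a high r. The search below left out small RNA records and predicted genes. Among 846 other genes that varied by an SD of at least 0.5 on the log2 scale, those most like the members' mean profile were Mbnl2, which encodes a splicing regulator, Phf1, Ypel5, Avl9 and Uap1, an enzyme of amino sugar synthesis, all at r of 0.997 or more. Mbnl2 was at 7.64 and 18.4 FPKM in PBS and the fusion at 3 h and at 6.68 and 21.8 FPKM at 6 h. Ypel5 was at 6.41 and 29.3 FPKM and then at 4.84 and 33.1 FPKM. For Atf4 alone the genes most like it were Stom, Ypel5, Tor3a, Phf1 and Rftn2, with r of at least 0.998. For Ddit3 they were Igfbp3, which encodes a binding protein of insulin-like growth factors, Eda2r, Uvrag, Ankrd33b and Mfsd11, with r from 0.994 to 0.999. Igfbp3 was at 24.4 and 89.0 FPKM in PBS and the fusion at 3 h and at 29.5 and 126 FPKM at 6 h.

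Upstream of ATF4, few mRNAs of the eIF2 machinery passed the 2-fold rule. Of 21 genes for eIF2 kinases, eIF2, its exchange factor eIF2B and their regulators, 1 was called higher and none lower at 3 h, and 1 higher and 1 lower at 6 h. These counts are near those over all tested genes, of which 6.13% were higher and 4.42% lower at 3 h and 7.13% and 3.34% at 6 h, the shares against which the lists that follow are also set. Their median log2 ratio was -0.096, or -0.21 with quantile normalisation, and -0.25 at 6 h. Eif2ak3, which encodes PERK, the kinase of the endoplasmic reticulum, was called higher at 3 h, at 12.1 FPKM against 2.86 in PBS and a log2 ratio of 1.77, and was at 0.84 at 6 h. Eif2ak1 was at 0.037 and 0.50, Eif2ak2 at -0.40 and -0.60, and Eif2ak4, the amino acid sensor GCN2, at -0.39 and -0.25. The eIF2B subunit gene Eif2b2 was called higher at 6 h (1.14) and the eIF2 gamma subunit gene Eif2s3x lower (-1.12). Ppp1r15b, the constitutive counterpart of Ppp1r15a, was at 0.82 and 0.97, short of 2-fold at both times and only just so at 6 h.

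Of 29 genes tested on a list of other bZIP genes, 12 were called higher at 3 h and 13 at 6 h and none lower. Their median log2 ratio was 0.74 and 0.93. The list includes Cebpz, which is not a bZIP gene despite its symbol and was called at neither time. Fos reached the minimum FPKM through the fusion columns alone, and so had to differ. With the minimum taken over the columns without the fusion, 11 and 12 genes were called higher, beside 5.74% and 6.65% of 10175 genes, and the medians were 0.74 and 0.90. Fos was at 0.432 FPKM in PBS and 170 FPKM in the fusion at 3 h and at 0.370 and 27.5 FPKM at 6 h. Fosb went from 1.83 to 137 FPKM and from 1.44 to 45.4 FPKM at the same times. Both were thus lower in the fusion at 6 h than at 3 h, in the same direction as Atf3. Cebpd, a C/EBP factor of acute inflammation, was at log2 ratios of 3.54 and 2.47, and the small MAF gene Maff at 3.25 and 2.28. Cebpd shares its locus in the table with another gene. Fosb alone of these was also past 2-fold with a part, at 3.92 FPKM with Omomyc at 6 h and a log2 ratio of 1.02 over PBS. Cebpa and Cebpe stayed under the minimum FPKM.

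**Figure D4:**
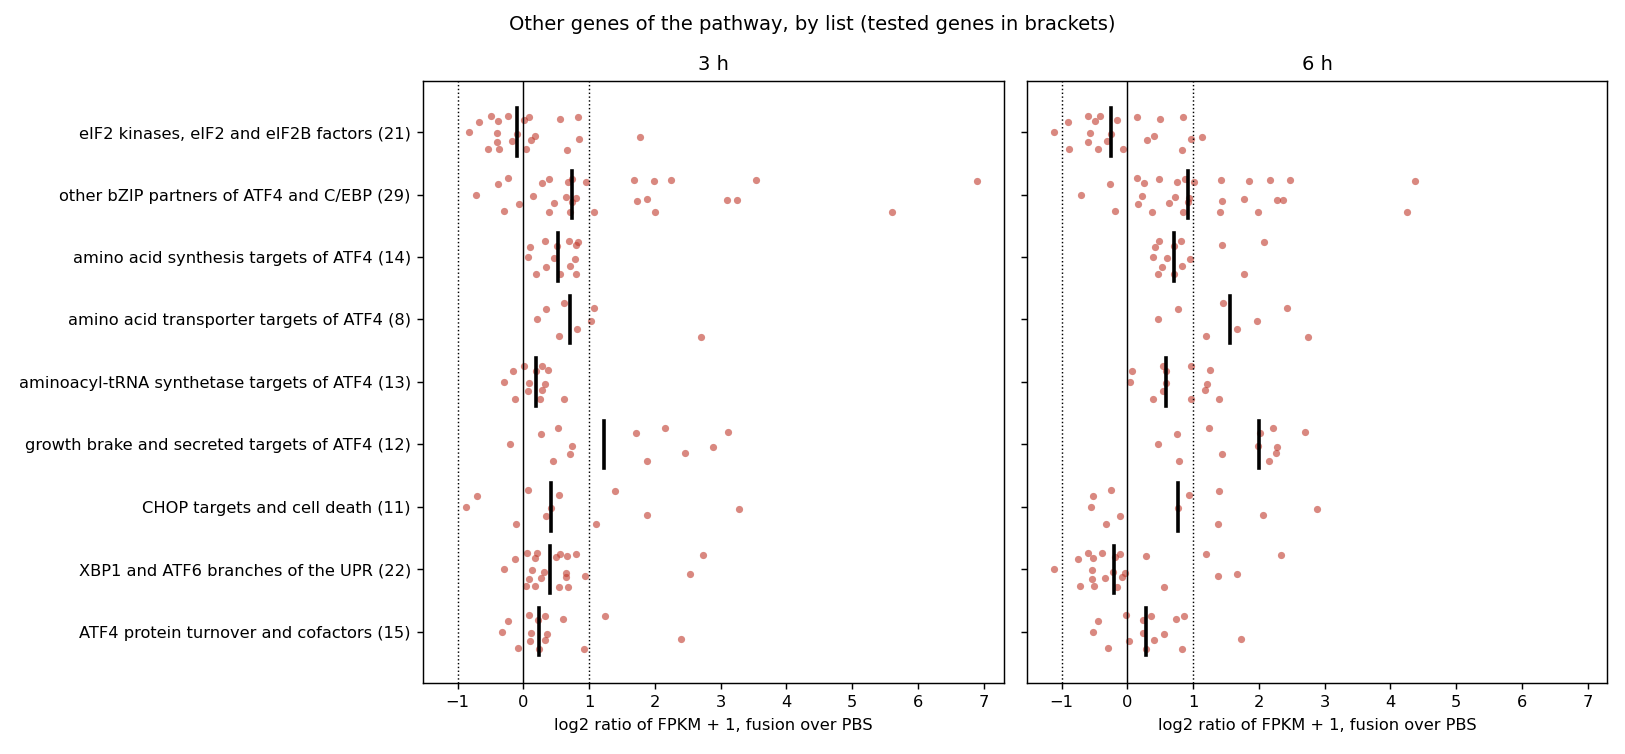
Log2 ratio of FPKM + 1, fusion over PBS at 3 h (left) and 6 h (right), for each tested gene of 9 lists of the wider pathway, members left out; black bars are list medians and dotted lines mark 2-fold. Medians at 6 h run from -0.25 for the eIF2 list to 2.00 for the growth brake and secreted targets.

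Targets of ATF4 outside the members had higher median ratios at 6 h, but PBS itself was lower then. Of 14 amino acid synthesis genes none was called higher at 3 h and 3 at 6 h: Gpt2 (2.08), an alanine aminotransferase gene, Cth (1.77), which makes cysteine, and Mthfd2 (1.44), a mitochondrial folate enzyme gene. All 14 lay above 0 at both times, with a median log2 ratio of 0.53 and 0.71. Asns, the asparagine synthetase gene, was at 317 FPKM in PBS and 453 FPKM in the fusion at 3 h, and at 235 and 458 FPKM at 6 h. In PBS all 14 were lower at 6 h than at 3 h, with a median log2 change of -0.31, while in the fusion the median change was -0.067. Against the mean of both PBS columns 3 genes were called higher at 3 h. Of 13 aminoacyl-tRNA synthetase and tRNA export genes none was called higher at 3 h, with a median log2 ratio of 0.19 that became -0.018 with quantile normalisation, and 4 were at 6 h: Cars (1.39), Aars (1.26), Tars (1.21) and Sars (1.18). Cars was at 44.6 FPKM in PBS and 46.9 FPKM in the fusion at 3 h, and at 27.0 and 72.4 FPKM at 6 h. In PBS all 13 were lower at 6 h, with a median of -0.36, and against the mean of both PBS columns 2 were called higher at 6 h.

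Of 8 amino acid transporter genes 3 were called higher at 3 h and 6 at 6 h, with a median log2 ratio of 0.71 and 1.56. With quantile normalisation 1 was called at 3 h. Slc38a2, a sodium-coupled transporter of neutral amino acids, reached 346 FPKM after 3 h of the fusion and 122 FPKM after 6 h, against 52.3 and 44.0 FPKM in PBS. The glycine transporter gene Slc6a9 (1.07 and 2.74), the cystine transporter gene Slc7a11 (0.34 and 2.43) and the cationic amino acid transporter gene Slc7a1 (0.61 and 1.98) had their larger ratio at 6 h. In PBS 7 of the 8 were lower at 6 h, with a median log2 change of -0.43, beside 0.30 in the fusion. Slc6a9 was at 23.8 and then 11.3 FPKM in PBS and at 51.0 and then 81.2 FPKM in the fusion. PBS values of Slc7a11 and Slc7a1 were lower at 6 h too, so part of the rise in these ratios came from PBS. In the fusion columns Slc38a2 was lower at 6 h and Slc6a9, Slc7a11 and Slc7a1 were higher, so the list held both directions of change.

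Of 12 tested genes that restrain growth or encode secreted and autophagy proteins, 6 were called higher at 3 h and 9 at 6 h and none lower, with a median log2 ratio of 1.23 and 2.00. Fgf21 and Txnip reached the minimum FPKM through the fusion columns alone, and without them 5 were called higher at 3 h and 7 at 6 h, with medians of 1.23 and 1.71. With a pseudocount of 5 the medians of the 12 were 0.61 and 1.01 and the counts 5 and 6, and without a filter on FPKM the 3 h median was 0.72. Those not called at 3 h included Stc2, at -0.21, and Eif4ebp1, at 0.26. Sesn2 and Ddit4, whose proteins restrain mTORC1, were at 3.11 and 2.88 at 3 h and at 2.22 and 2.26 at 6 h. Sqstm1, which encodes the autophagy receptor p62, was at 310 FPKM in PBS and 1702 FPKM in the fusion at 3 h, and at 254 and 1649 FPKM at 6 h. Fgf21, a stress hormone gene, was at 0.0305 and 2.78 FPKM at 3 h and at 0.268 and 5.14 FPKM at 6 h. Gdf15 and Adm2 stayed under the minimum.

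Of 11 genes linked to CHOP and cell death 4 were called higher at each time and none lower, with a median of 0.42 and 0.76. A pseudocount of 5 lowered the medians to 0.25 and 0.34. Gadd45a, a growth-arrest gene, was at 3.28 and 2.89, Bbc3, which encodes PUMA, at 1.88 and 1.40, and Ero1l, an oxidase of the endoplasmic reticulum, at 1.39 and 1.38. Gadd45a, like Slc6a9, Aars and Eif2ak1 above, has a locus that overlaps another gene's in the table. Mcl1 (1.11 and 0.93) was called at 3 h alone and Car6 (0.42 and 2.06) at 6 h alone. Of the 11 genes, 8 lay above 0 at 3 h and 6 at 6 h. Bcl2 (-0.87 and -0.32), Bak1 (-0.70 and -0.56) and Dapk3 (-0.12 and -0.11) lay below 0 at both times, and Bak1 also shares its locus. Tnfrsf10b, a death receptor gene, was at 0.069 and -0.53. The XBP1 and ATF6 branches of the unfolded protein response had 2 of 22 genes called higher and none lower at 3 h, and 4 higher and 1 lower at 6 h. The 3 h count of higher genes and the 6 h count of lower genes are each within 1 gene of the share over all tested genes. Their median log2 ratio was 0.40, or 0.14 with quantile normalisation, and then -0.21. Herpud1 (2.73 and 1.67) and Dnajb9 (2.53 and 2.33), genes of protein disposal in the endoplasmic reticulum, led it, followed at 6 h by Xbp1 (1.37) and Ern1 (1.19). The chaperone gene Hspa5 was at 552 FPKM in PBS and 1054 FPKM in the fusion at 3 h, and at 493 and 479 FPKM at 6 h. While Ddit3 was higher at 6 h than at 3 h in the fusion, the median change of this list was -0.65 on the log2 scale. That change is from the deposited columns, was not computed under other scaling and may depend on it. Of 15 genes for ATF4 turnover and cofactors 2 were called higher at 3 h and 1 at 6 h, both counts near the share of all tested genes. The 3 h count was 1 with a pseudocount of 5 or a minimum of 5 FPKM. Trib1, a relative of Trib3, was at 2.40 and 1.73 and so had its larger ratio at 3 h, unlike Trib3, and the coactivator gene Crebbp was at 1.24 and 0.86. Ep300 (0.60 and 0.83) and Egln3 (0.91 and 0.23) did not pass the rule.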

How the data were processed

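RNA-seq of T11 cells was deposited as 1 table of group averages in FPKM. The authors made these FPKM values, with Cuffnorm 2.2.1, Cufflinks 2.2.1, STAR 2.1.3, bcl2fastq 2.17.1.14 and build mm9 named in the submitters' processing notes. How these tools were set, how libraries were scaled and whether strand was used is not stated in the sources used here. Groups came from the sample titles. Table starts were shifted by 1 to count from 1. Python 3.11.15 with pandas 2.3.3 computed log2 ratios of FPKM + 1 (pseudocount 1) for 14 comparisons over the 10262 genes that averaged 1 FPKM or more, and a gene at 2-fold or more was called. The code of the rule was run on simulated columns with set fold changes and an assumed noise, which does not measure false calls in these data. No test over samples was possible with 1 column a group, and no p-value is given. Depth was read from the step of FPKM times transcript length, sought among 797 genes with 1 long GENCODE transcript. Of these, 36 to 55 genes a column fell in a preset range of low values. The step was the median of the 17 to 33 genes at the peak of that range.

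The members and the 9 gene lists were chosen with earlier results of these data known. Named were all members, up to 4 genes of each list with the largest ratio and 5 genes most like each of 3 profiles; some further list genes are named beside them, chosen after their values were seen. Promoter windows are RefSeq's, build GRCm38.p6, and were not mixed with mm9 positions. Protein sequences were not used here. Alternatives were the pseudocount, the filter, scaling, the fold, the PBS reference, leaving out 140 tested records of small RNAs and, added after seeing the data, leaving out members with a shared locus and taking the filter over the 6 columns without the fusion.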

Additional observations from a re-analysis of the deposited data

How the results depend on the processing

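For the fusion against PBS, 7 to 8 of the 10 members were called higher at 3 h and 9 to 10 at 6 h over the alternatives that keep all 10, and 7 and 8 of the 8 members with a locus of their own. Over all alternatives the members' median log2 ratio was 1.89 to 2.22 and 2.37 to 2.71, and no called member changed direction. For each part against PBS, 0 members were called in every alternative. Within the fusion, 2 members were called higher at 6 h than at 3 h with quantile normalisation, and 3 higher and 2 lower with a 1.5-fold rule. The members' median log2 change from 3 h to 6 h in the fusion ran from -0.17 to 0.78, beside 0.27 with the settings used above. Atf4 at 3 h was at 0.87 with quantile normalisation, and Atf5 at 6 h at 1.14. Of the gene lists, a pseudocount of 0.1 gave 1 lower at 3 h for CHOP and cell death, and at 6 h 2 higher and 2 lower for eIF2 and 2 higher for ATF4 turnover. A pseudocount of 5 gave medians of 0.61 at 3 h and 1.01 at 6 h for the growth brake list and 0.25 and 0.34 for CHOP, 1 higher at 3 h for turnover and 0 lower at 6 h for eIF2 and for XBP1 and ATF6. With no filter the growth brake median at 3 h was 0.72 and the CHOP median at 6 h 0.38. With a minimum of 5 FPKM the growth brake median at 3 h was 1.94, the CHOP medians were 0.73 and 0.41, and 0 eIF2 and 1 turnover genes were higher at 3 h. Quantile normalisation gave 1 transporter gene higher at 3 h, 2 eIF2 genes higher and 2 lower at 6 h, and 3 h medians of -0.21 for eIF2, -0.018 for synthetases and 0.14 for XBP1 and ATF6. The 1.5-fold rule gave at 3 h 4 higher and 2 lower for eIF2, 19 and 1 for bZIP genes, 6 higher for synthesis, 5 for transporters, 1 for synthetases, 8 for XBP1 and ATF6 and 4 for turnover, and 2 lower for CHOP. At 6 h it gave 4 higher and 5 lower for eIF2, 20 and 1 for bZIP genes, 9 higher for synthesis, 8 for synthetases and 4 for turnover, and 4 lower for XBP1 and ATF6. With the mean of both PBS columns as reference, 1 eIF2 gene was lower and 3 synthesis genes were higher at 3 h, and 2 synthetase genes at 6 h, and the medians were 0.38 for synthetases at 3 h and 0.42 for turnover at 6 h. The causes were not tested. A minimum of 1 FPKM over the columns without the fusion moved no count of members or list genes by over 1.5 times. Median-of-ratios scaling did not either, but its factors lay between 0.994 and 1.014, so it hardly changed the values. Leaving out small RNA records could not move these counts, as no member or list gene is such a record. No paired analysis was possible because each group is 1 averaged column, and for the same reason no replicate could be left out.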
